A study of Mus musculus with 3 samples.

Results

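The cells described here are the macrophages of 3 mouse melanomas, taken as every cell that carries the cluster name Macrophages in the deposited cell table. There were 794 such cells of 12670 in all: the untreated tumor gave 312 of its 4095 cells, the regressed one 143 of 3726 and the progressed one 339 of 4849. Messenger RNA was counted per single cell as unique molecular identifiers (UMIs), tags that let the copies of 1 captured molecule be counted once. Each group held 1 tumor, so no test between groups was possible, no spread between animals is known, and the 95% intervals given below cover counting error only. Cells of 1 tumor were not treated as replicates.

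All 3 tumors came from the same genetically engineered model on the C57BL/6 background. These mice carry a mutant Braf allele, Tyr.CreER and a Rosa26 LSL.tdTomato reporter, and tamoxifen applied to the flank skin starts recombination in cells that use the Tyr promoter, which are melanocytes. Macrophages are therefore host cells that carry the alleles without being the intended target of the Cre. The untreated tumor received no drug, and the regressed and progressed tumors came from animals given vemurafenib, an inhibitor of the mutant Braf kinase, one sampled as regressed and the other as progressed on the drug.

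Macrophages of the skin and of skin tumors engulf dead cells and debris, recycle iron, present antigen and secrete complement and chemokines. C1qa, C1qb and C1qc encode the chains of C1q, which starts the classical complement cascade. Cd163 takes up haemoglobin bound to haptoglobin, Folr2 is a folate receptor, Fcna is a ficolin, a lectin that binds sugars on microbes, and Cd209f belongs to the DC-SIGN family of lectins; these receptors are known from macrophages that reside in tissue.

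Short stretches before the start sites of 4 of the genes followed here show letters bound by factors known from macrophages. They are taken from RefSeq (GRCm38.p6) and are 30 bases long. Capitals mark GAGGAA or its reverse complement, a core bound by PU.1, the factor that sets myeloid fate, or TTC and GAA around any 4 bases, a core bound by STAT6, which acts downstream of interleukin 4.
C1qb (chr4:136886213-136886242, strand -, PU.1 letters): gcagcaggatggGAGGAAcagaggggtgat
C1qc (chr4:136893090-136893119, strand -, PU.1 letters): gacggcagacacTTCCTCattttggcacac
Fcna (chr2:25628139-25628168, strand -, PU.1 letters): agagaagcagaaGAGGAAggtagaggagga
Retnla (chr16:48842454-48842483, strand +, STAT6 letters): agaatcataaTTCACAAGAAattgctaaac
On both strands of the 250 bases before a start, the PU.1 letters stood in 23.3% and the STAT6 letters in 5.85% of 32851 listed promoters. Of the markers with a listed promoter, Cd163, Folr2 and Cd209f held neither in that window, and Retnla also held the PU.1 letters. The letters TGCTGA, searched for the factor MAF, stood in 16.1% of the listed promoters. They were present for C1qb, Folr2, Fcna and Retnla and absent for C1qc, Cd163 and Cd209f. The matches describe these letters and show no binding. The C1qa promoter was not analysed here.

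Depth differed between the tumors. The macrophages held 1209981 UMIs (untreated), 269415 UMIs (regressed) and 1265426 UMIs (progressed), with medians of 3429, 1388 and 3450 UMIs per cell. The regressed macrophages were thus the fewest and the shallowest. They also stood apart in RNA that macrophages do not make: haemoglobin reached 1845 counts per 1000000 UMIs (CPM), against 44.6 and 0.79 CPM in the untreated and progressed ones, and in the non-immune stroma (clusters Stroma1 to Stroma10) of the regressed tumor it reached 1585 CPM. Summed markers of mast cells (10 genes) gave 40.5, 683 and 103 CPM in untreated, regressed and progressed macrophages and 23.3, 603 and 69.5 CPM in stroma, and those of keratinocytes (9 genes) gave 203, 1377 and 371 CPM in macrophages and 229, 1229 and 336 CPM in stroma. Xist had 0 UMIs in regressed macrophages and 936 and 1100.0 CPM in untreated and progressed ones. Y-linked genes had 43 UMIs in regressed macrophages and 0 and 3 UMIs in untreated and progressed ones. The labels do not give the sex of the animals. A difference in sex, or another one between animals, cannot be told apart from one of treatment.

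The marker genes were high in the cluster in each tumor. C1qa stood at 4498 CPM (untreated), 5764 CPM (regressed) and 6603 CPM (progressed), against 129, 489 and 96.5 CPM in the cluster Monocytes1, 215, 177 and 649.9 CPM in Monocytes2 and 10.9, 41.7 and 16.9 CPM in stroma. After each cell was thinned to 1000 UMIs, which left out 8 untreated, 51 regressed and 7 progressed macrophages, a C1qa UMI was present in 93.1, 96.7 and 95.8% of macrophages and in 0.693, 3.69 and 1.82% of stroma cells. Unthinned, the macrophage shares were 97.4, 95.8 and 97.6%, and the stroma cells had medians of 4654, 3152 and 4388 UMIs. C1q thus marked nearly every macrophage.

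The receptors marked only a minority of the cells. Thinned, a Cd163 UMI was present in 16.1, 17.4 and 10.5% of untreated, regressed and progressed macrophages. For Folr2 the shares were 15.1, 7.61 and 26.8%, and for Cd209f 14.1, 4.35 and 15.1%. Stroma cells held these genes in at most 0.173% of cells, so the shares lie above the background of free RNA.

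**Figure D1:**
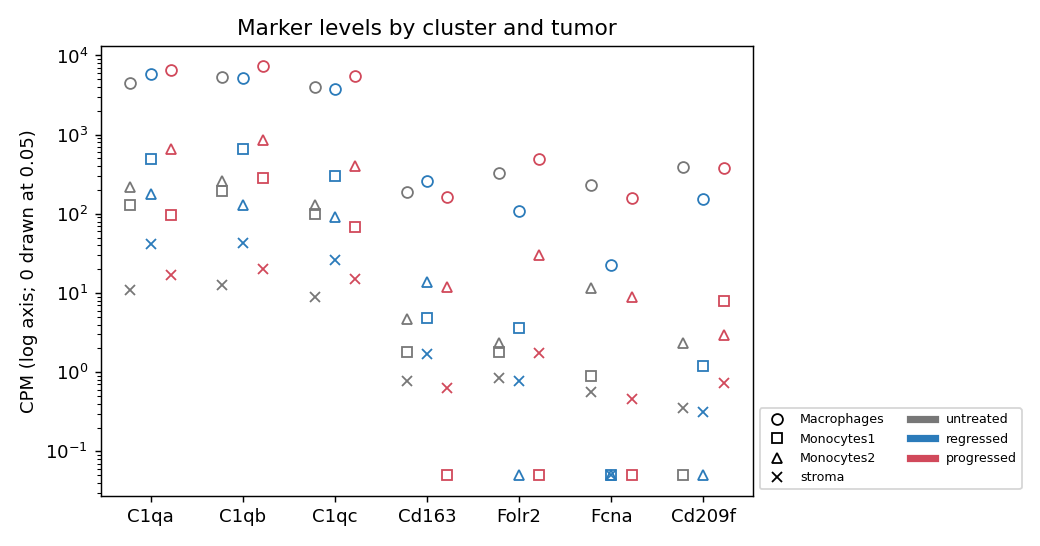
Levels of the 7 marker genes in CPM (log axis, 0 drawn at 0.05), by cluster (symbol) and tumor (colour), 1 point per cluster and tumor. In each tumor the macrophage points lie above those of Monocytes1, Monocytes2 and stroma for all 7 genes.

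Against Monocytes1, 101 of 3245 features (3.11%) were at least 2-fold higher in macrophages in each of the 3 tumors and 89 of 3245 (2.74%) at least 2-fold lower, among features with at least 50 UMIs over both clusters in every tumor. The clusters were made from these genes, so the differences describe the clusters and are no test. Cbr2, a carbonyl reductase, led the higher side with 480.2, 282 and 531 CPM in macrophages and 6.23, 9.71 and 8.04 CPM in Monocytes1, a smallest log2 ratio of 4.86 over the tumors. Fcrls, Mgl2, Ltc4s, Cd163, C1qc, C1qa, Stab1, Ms4a7 and C1qb followed, with smallest log2 ratios from 4.50 down to 2.97. On the lower side stood Plac8 and Ly6c2, both known from monocytes: Plac8 reached 102, 52 and 137 CPM in macrophages and 3856, 1634 and 6813 CPM in Monocytes1. Chil3, Gsr, Hp, Plaur, Ifitm6 and F10, along with AA467197 and Mir7678, were lower as well.

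Against Monocytes2, 134 of 2191 features (6.12%) were higher in macrophages and 75 of 2191 (3.42%) lower by the same rule. Ms4a7 led with 447, 1444 and 763 CPM against 4.68, 2.3 and 3.95 CPM. Stab1, a scavenger receptor, Cbr2, Pf4, the transcription factor Maf, the lipid carrier Apoe, the lipid receptor Trem2, the fractalkine receptor Cx3cr1, the complement receptor C3ar1 and Cd163 followed, with smallest log2 ratios from 5.79 to 3.77. Lower were Ccl17, Fscn1, H2-Oa and Flt3, all known from dendritic cells, and Napsa, Tbc1d4, S100a11, Itgb7, Bri3bp and Cd7. Ccl17 had 1, 0 and 2 UMIs in macrophages and 461, 202 and 1199 CPM in Monocytes2. Summed dendritic cell markers (14 genes) stayed at 173, 167 and 237 CPM in macrophages and reached 2581, 1655 and 2860.3 CPM in Monocytes2.

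Macrophages made up 29.6% (95% interval 26.9 to 32.5%) of the immune cells of the untreated tumor, 14.9% (95% interval 12.7 to 17.4%) of those of the regressed one and 49.6% (95% interval 45.8 to 53.5%) of those of the progressed one. The share was lowest in the regressed tumor and highest in the progressed one, with intervals that do not overlap. Of all cells of a tumor the shares were 7.62% (95% interval 6.82 to 8.47%), 3.84% (95% interval 3.24 to 4.51%) and 6.99% (95% interval 6.29 to 7.75%); the intervals of the untreated and progressed tumors overlap. The progressed tumor held 4 neutrophils against 391 in the untreated one, which enters the immune denominator.

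Across features with at least 50 UMIs over both tumors, 175 of 4276 (4.09%) were at least 2-fold higher and 352 of 4276 (8.23%) at least 2-fold lower in regressed than in untreated macrophages. From regressed to progressed, 315 of 4200 (7.5%) were higher and 183 of 4200 (4.36%) lower, and between progressed and untreated, which leaves out the shallow library, 135 of 5934 (2.28%) were higher and 166 of 5934 (2.8%) lower. Many of these features were not far above the surrounding stroma: of the 175 features higher in regressed macrophages, 135 did not reach 2 times the stroma level of the tumor in which they were higher, against 187 of 352 lower ones. Those that led the regressed side included Tpsb2 and Cma1 of mast cells and Krt15 and Krt10 of keratinocytes, and Tpsb2 reached 223 CPM in regressed macrophages and 195 CPM in stroma. Mir6236, Mir5107 and Defb6 completed that side with Cxcl13. As the regressed macrophages held far fewer UMIs, a feature could reach the minimum through the other tumor alone, here and in the lists below. The median log2 ratio over all features was -0.11, -0.01 and -0.11 in the 3 comparisons. Scaling by trimmed means (TMM) moved every log2 ratio by -0.13, 0.24 and 0.11 and gave 123 higher and 448 lower features for regressed against untreated, 498 and 99 for progressed against regressed, and 165 and 109 for progressed against untreated, where the larger side switched.

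Of the 7 marker genes, Folr2, Fcna and Cd209f were lower in regressed macrophages by more than 2-fold, and the C1q genes and Cd163 were not. Fcna stood at 229 CPM (untreated), 22.3 CPM (regressed) and 159 CPM (progressed) (277, 6 and 201 UMIs). The regressed tumor was the low one, with a log2 ratio to untreated of -3.36 (95% interval -4.82 to -2.22). Folr2 stood at 324 CPM (untreated), 108 CPM (regressed) and 494 CPM (progressed), a log2 ratio of -1.59 (95% interval -2.19 to -1.04) between regressed and untreated and of 0.61 (95% interval 0.42 to 0.79) between progressed and untreated. Cd209f, at 396 CPM (untreated), 156 CPM (regressed) and 379 CPM (progressed), was also lowest in the regressed tumor, with a log2 ratio to untreated of -1.34 (95% interval -1.84 to -0.89) for regressed and -0.06 (95% interval -0.25 to 0.12) for progressed macrophages. With equal weight per cell the regressed ratios were smaller, -0.88 for Folr2, -0.38 for Cd209f and -3.01 for Fcna. By the same thinned counts, 10.2% of untreated and 11.1% of progressed cells had a Fcna UMI, against 0 of 92 regressed cells, a count that allows up to 3.26% of cells with a thinned UMI. Unthinned, 55 of 312, 3 of 143 and 60 of 339 macrophages had one, and 1 regressed cell held 4 of the 6 regressed UMIs. Cd163 instead was highest in the regressed tumor, at 187 CPM (untreated), 256 CPM (regressed) and 161 CPM (progressed). C1qb stood at 5339.8 CPM (untreated), 5200.2 CPM (regressed) and 7284 CPM (progressed) and C1qc at 4004 CPM (untreated), 3771 CPM (regressed) and 5459.8 CPM (progressed), both highest in the progressed tumor, with log2 ratios between regressed and untreated of -0.04 (95% interval -0.12 to 0.05) and -0.09 (95% interval -0.19 to 0.01). Together the 7 genes summed to 14977, 15278 and 20538 CPM, a log2 ratio of 0.03 (95% interval -0.02 to 0.08) between regressed and untreated and 0.46 (95% interval 0.43 to 0.48) between progressed and untreated.

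Lectin receptors made up most of the receptors that were low in the regressed tumor. Of 18 listed receptors with enough UMIs, 0 were higher and 8 at least 2-fold lower in regressed than in untreated macrophages, with a median log2 ratio of -0.52. Over all features the shares were 4.09% and 8.23%. The 8 include the markers Folr2, Fcna and Cd209f described above. Cd209d had 161 untreated and 4 regressed UMIs, and Lyve1 had 248 and 10, with 5 of the 10 in 1 cell. Like Fcna, both reached the UMI minimum through the untreated tumor alone, which favours a lower call. The count of 8 is therefore a description only. Lyve1, a hyaluronan receptor, stood at 205 CPM (untreated), 37.1 CPM (regressed) and 145 CPM (progressed), and Cd209d at 133 CPM (untreated), 14.8 CPM (regressed) and 60.8 CPM (progressed). Clec10a, a lectin for galactose-type sugars, stood at 263 CPM (untreated), 100.2 CPM (regressed) and 331 CPM (progressed). The mannose receptor Mrc1 and the scavenger receptor Stab1 differed little, at 1032, 924 and 1035 CPM and 388, 338 and 356 CPM, with log2 ratios between regressed and untreated of -0.16 (95% interval -0.36 to 0.04) and -0.20 (95% interval -0.54 to 0.13). The fatty acid receptor Cd36 was high in the progressed tumor alone, at 60.3 CPM (untreated), 66.8 CPM (regressed) and 273 CPM (progressed).

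Genes of alternative activation, the state set by interleukin 4, were lower in the regressed tumor. Retnla, a secreted protein of the resistin family, stood at 3290.1 CPM (untreated), 3.71 CPM (regressed) and 3852 CPM (progressed), and the regressed value rests on 1 UMI. Its log2 ratio between regressed and untreated was -9.79 (95% interval -15.10 to -7.31). Monocytes2 showed the same order, at 2567, 0 and 14771 CPM. Thinned, a Retnla UMI was present in 13.2% of untreated and 24.4% of progressed macrophages, against 1.62% and 5.85% of stroma cells, and the tenth of macrophages with the most held 99.3% and 96.6% of its UMIs. The whole list summed to 6171, 1934 and 7272 CPM, a log2 ratio of -1.67 (95% interval -1.80 to -1.55) between regressed and untreated, and without its most abundant member the ratio was -0.58. Of 11 listed genes tested, 7 were lower and 0 higher (median log2 ratio -1.12), against 8.23% and 4.09% of all features. The 7 include Clec10a, which is also among the receptors above, and Klf4, which is also a listed transcription factor. They also include Chil3 and Fn1, which are listed as monocyte markers as well, and Fn1 was lower in regressed than in untreated stroma too. Retnla, with 3981 untreated UMIs, reached the UMI minimum through the untreated tumor alone. The count of 7 is therefore a description only. Ccl24, an eosinophil attractant, was highest in the progressed tumor, at 254 CPM (untreated), 145 CPM (regressed) and 759 CPM (progressed).

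Inflammatory and immediate early genes were also low in the regressed tumor. The inflammatory cytokine Il1b stood at 913 CPM (untreated), 145 CPM (regressed) and 333 CPM (progressed). Of 10 inflammatory genes tested, 6 were lower and 0 higher in regressed than in untreated macrophages, against 8.23% and 4.09% of all features. The list had a log2 ratio of -1.57 (95% interval -1.77 to -1.38) in macrophages and -2.12 (95% interval -2.17 to -2.07) in stroma. The 10 neutrophil markers summed to 1096, 813 and 41.9 CPM in macrophages and 888, 581 and 81.1 CPM in stroma, and their part in these values was not tested. The neutrophil attractant Cxcl2 stood at 2039 CPM (untreated), 145 CPM (regressed) and 748 CPM (progressed), and the monocyte attractants Ccl2 and Ccl7 at 1664, 349 and 1626 CPM and 2464, 371 and 2318 CPM in untreated, regressed and progressed macrophages. Of 17 chemokines tested, 7 were lower and 1 higher in the regressed tumor, against 8.23% and 4.09% of all features. Between progressed and regressed, 14 of 20 were higher and 0 lower, against 7.5% and 4.36% of all features. Some of the 14 had enough UMIs only through the progressed tumor, such as Cxcl9 with 1 regressed and 116 progressed UMIs. For such genes the call followed from the UMI minimum. Ccl12, a monocyte attractant, stood at 988 CPM (untreated), 902 CPM (regressed) and 2766 CPM (progressed), high in the progressed tumor. Ccl8 and Pf4 did not pass the 2-fold mark between regressed and untreated, at 2945, 3916 and 3848 CPM and 3526, 4398 and 3352 CPM. Immediate early genes, which respond within minutes to stimuli and to tissue dissociation, summed to 17894, 10256 and 18666 CPM in macrophages and 17504, 9635 and 16931 CPM in stroma. The log2 ratio between regressed and untreated was -0.80 (95% interval -0.86 to -0.75) in macrophages and -0.86 (95% interval -0.87 to -0.85) in stroma, so the lower level was shared with stroma. The part of dissociation in it was not tested.

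Sums of antigen presentation genes were higher in both vemurafenib-treated tumors than in the untreated one, and most single members stayed within 2-fold. Of 6 MHC class II genes tested, 1 was at least 2-fold higher in regressed than in untreated macrophages (4.09% of all features), and 2 of 7 were in progressed ones (2.28%), with 0 and 0 lower and median log2 ratios of 0.68 and 0.89. For MHC class I, 0 of 9 and 2 of 9 were higher, against 4.09% and 2.28% of all features, with 0 and 0 lower. Summed MHC class II genes reached 28197, 49986 and 54152 CPM, log2 ratios to untreated of 0.83 (95% interval 0.80 to 0.85) for regressed and 0.94 (95% interval 0.92 to 0.96) for progressed macrophages. H2-Ab1, a class II chain, stood at 4184 CPM (untreated), 8912 CPM (regressed) and 8923 CPM (progressed), and H2-Eb1 at 3879 CPM (untreated), 7646 CPM (regressed) and 8808 CPM (progressed). Among stroma cells the class II sum was 159, 1081 and 344 CPM, below the macrophage level but with a log2 ratio of 2.77 (95% interval 2.70 to 2.84) between regressed and untreated. In Monocytes1 it was 10537, 24445 and 14246 CPM, with the regressed tumor highest. Thinned, a H2-Eb1 UMI was present in 62.2, 85.9 and 84.6% of untreated, regressed and progressed macrophages. MHC class I genes, which every cell uses, summed to 5564, 7587 and 10144 CPM, lowest in the untreated and highest in the progressed tumor, and stroma had the same order at 1998, 2595 and 3516 CPM.

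Several genes induced by interferon were highest in the progressed tumor. Of 16 tested, 10 were at least 2-fold higher than in untreated macrophages and 0 lower (median log2 ratio 1.15). Over all features the shares were 2.28% and 2.8%. The 10 included the interferon regulator Irf7, at 40.5, 55.7 and 126 CPM. Between regressed and untreated, 1 was higher and 1 lower of 7, against 4.09% and 8.23% of all features. The tested genes differ between these comparisons, so the counts cannot be compared. Some of the 10 had enough UMIs only through the progressed tumor, such as Cxcl9, and Cxcl10 with 19 untreated and 96 progressed UMIs. For such genes the UMI minimum favours a higher call, so the count of 10 is a description only. Thinned, the list gave a median of 2 UMIs per cell in untreated and progressed macrophages alike, with quartiles of 1 to 3 and 1 to 4. Cxcl9, which attracts T cells, had 0, 1 and 116 UMIs, which makes it at least 37-fold higher in the progressed than in the untreated tumor at a floor of 3 UMIs per group. Ccl5, another T cell attractant, had 0, 14 and 325 UMIs, at least 104-fold higher by the same floor. Few cells carried them: thinned, 2.41% of progressed macrophages had a Cxcl9 UMI and 5.72% a Ccl5 UMI, against 1.12% and 0.412% of stroma cells. In the progressed tumor 1 macrophage held 71 of the 116 Cxcl9 UMIs and 1 held 134 of the 325 Ccl5 UMIs. Without the cell with the most UMIs of the gene in each tumor, the bounds were at least 14.3-fold for Cxcl9 and at least 60.8-fold for Ccl5. The 12 measured markers of T and NK cells summed to 29.8, 252 and 52.9 CPM in macrophages, highest in the regressed tumor, and their part in the Ccl5 level was not tested. Cxcl13, which attracts B cells, stood at 15.7 CPM (untreated), 223 CPM (regressed) and 232 CPM (progressed). In the regressed tumor 5 of 143 macrophages carried it and 1 of them held 49 of its 60 UMIs. Without the macrophage with the most Cxcl13 in each tumor the levels were 9.95, 41.5 and 196 CPM, so the regressed level rests mostly on that cell.

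On the lower side of the progressed tumor stood S100a8, S100a9 and Retnlg, all known from neutrophils, with Saa3, Ifitm1, Chil3, Lrg1 and Clec4e. S100a8 stood at 474 CPM (untreated), 401 CPM (regressed) and 0.79 CPM (progressed) in macrophages and at 340.2, 281 and 2.62 CPM in stroma. Ccr2, the receptor through which monocytes leave the blood, stood at 849.6 CPM (untreated), 676 CPM (regressed) and 320.1 CPM (progressed), lowest in the progressed macrophages, with a log2 ratio to untreated of -1.41 (95% interval -1.58 to -1.24). Pla2g2d, a secreted phospholipase, and Siglech, known from plasmacytoid dendritic cells, were higher there, at 13.2, 40.8 and 134 CPM and 6.61, 40.8 and 71.1 CPM.

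Iron, lipid and lysosome genes differed less. Of 12 iron and haem genes tested, 0 passed the 2-fold mark in either direction between regressed and untreated. These are too few genes for a count of 0 to stand apart from 4.09% higher and 8.23% lower over all features. The whole iron and haem list summed to 19094, 16473 and 19539.7 CPM. The ferritin heavy chain Fth1 made up 66.1% of that sum, and without it, or with equal weight per cell, the ratio between regressed and untreated changed sign. Apoe, which carries lipids out of cells, stood at 25799 CPM (untreated), 39883 CPM (regressed) and 35231 CPM (progressed). Trem2 stood at 775, 817 and 859.8 CPM, a log2 ratio between regressed and untreated of 0.07 (95% interval -0.14 to 0.29). Between regressed and untreated the sum of lipid genes had a ratio of 0.49 (95% interval 0.46 to 0.51) and that of lysosome genes 0.16 (95% interval 0.13 to 0.20), but both turned negative without their most abundant member. Lyz2, a lysozyme, was highest in the regressed tumor at 3629 CPM (untreated), 8281 CPM (regressed) and 5495 CPM (progressed).

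Of 19 transcription factors tested, 6 were lower and 0 higher in regressed than in untreated macrophages, against 8.23% and 4.09% of all features. The 6 include Klf4, which is also among the genes of alternative activation. Nr4a1, an early response factor of the nuclear receptor family, stood at 555 CPM (untreated), 89.1 CPM (regressed) and 431 CPM (progressed). The factor Maf stood at 534, 519.6 and 424 CPM, and Spi1, which encodes PU.1, at 459, 364 and 522 CPM, with log2 ratios between regressed and untreated of -0.04 (95% interval -0.31 to 0.23) and -0.33 (95% interval -0.66 to -0.02). Csf1r, the receptor for the growth factor on which macrophages depend, stood at 1167 CPM (untreated), 998 CPM (regressed) and 1377 CPM (progressed). The fractalkine receptor Cx3cr1 was highest in the regressed tumor, at 568 CPM (untreated), 1058 CPM (regressed) and 628 CPM (progressed).

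The growth factor Pdgfa was highest in progressed macrophages, at 22.3 CPM (untreated), 26 CPM (regressed) and 70.3 CPM (progressed), with a log2 ratio to untreated of 1.66 (95% interval 1.02 to 2.33). Tgfb1 stood at 245, 171 and 271 CPM and Fn1, the matrix protein fibronectin, at 375, 126 and 187 CPM in macrophages against 863, 353 and 803 CPM in stroma. Of the activating and inhibitory receptors for antibody, Fcgr4 was lowest in the regressed and highest in the progressed tumor, at 112 CPM (untreated), 55.7 CPM (regressed) and 239 CPM (progressed). Checkpoint and inhibitory genes gave 0 higher and 0 lower of 7 between regressed and untreated, and 0 and 0 of 11 between progressed and untreated. Shares of 4.09% higher and 8.23% lower, and of 2.28% and 2.8%, over all features leave little to be seen in so few genes. Vsir, an inhibitory ligand, stood at 317 CPM (untreated), 259.8 CPM (regressed) and 339.8 CPM (progressed). For efferocytosis, the uptake of dying cells, 0 of 13 genes were higher and 0 lower between regressed and untreated, too few genes for a count of 0 to stand apart from those shares. Mertk and Axl, receptors that bind dying cells, stood at 76.9, 77.9 and 71.1 CPM and 156, 264 and 303 CPM.

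Further features were named for their large ratios. Fosl2, Rilpl2 and Thap6 were lower in regressed than in untreated macrophages, and Fosl2 stood at 174 CPM (untreated), 11.1 CPM (regressed) and 152 CPM (progressed) in macrophages and 82.5, 39.2 and 170.2 CPM in stroma. Saa3, an acute phase protein, had 86.8, 3.71 and 0 CPM in macrophages and 1345, 15.4 and 2.67 CPM in stroma. From regressed to progressed, Hs6st1, Impact, Gadd45b and Ly6c2 were higher along with Fosl2 and Rilpl2, and Ctla2a and AY036118 were lower, and AY036118 stood at 52.1, 156 and 24.5 CPM in macrophages and 52.9, 155 and 26.7 CPM in stroma. Iigp1, Timp3 and Ly6a were higher in progressed than in untreated macrophages, and Timp3, at 22.3, 189 and 165 CPM, lay below the stroma at 442, 1536 and 1442 CPM.

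**Figure D2:**
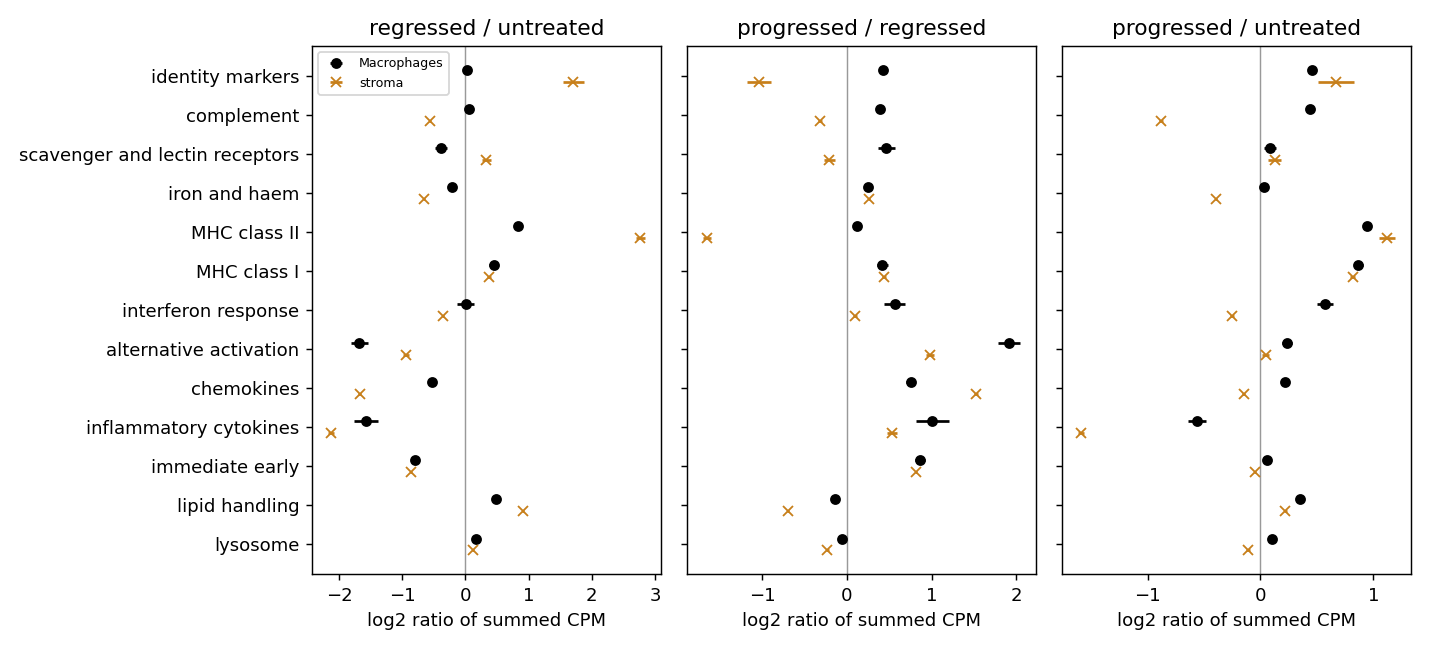
Log2 ratios of summed CPM for 13 gene lists, with 95% counting intervals, in macrophages (black) and in stroma (orange), for the 3 pairs of tumors. Alternative activation and inflammatory cytokines lie furthest left among macrophage points for regressed against untreated, and MHC class II lies furthest right.

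**Figure D3:**
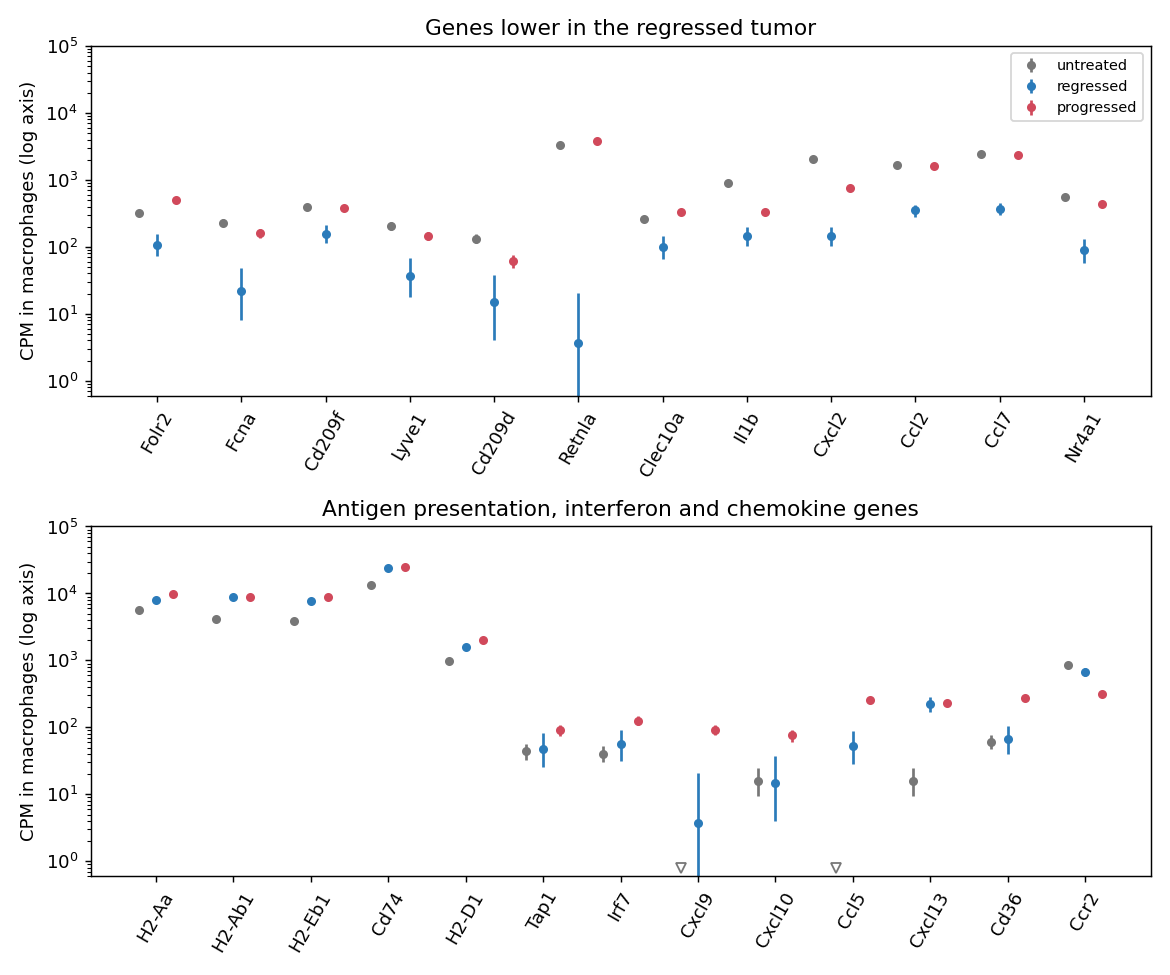
CPM of named genes in the macrophages of each tumor (log axis) with exact Poisson 95% intervals; open triangles mark 0 UMIs. Genes of the upper panel are lowest in the regressed tumor. In the lower panel Ccr2 is lowest, and Cxcl9, Ccl5, Irf7 and Cd36 are highest, in the progressed tumor.

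Macrophages also varied among themselves, and the receptor genes and MHC class II went opposite ways within each tumor. Over thinned cells (304 untreated, 92 regressed, 332 progressed), the Spearman correlation of summed receptor UMIs with summed class II UMIs was -0.31, -0.29 and -0.48. Receptors went with chemokines, at 0.55, 0.44 and 0.47. These are descriptions over cells that share 1 library and a fixed depth. Class II varied widely, from 2 to 37 UMIs between the quartiles of untreated cells and from 13 to 79 UMIs in progressed ones.

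Cells with at least 1 thinned UMI of Cd163, Folr2, Fcna or Cd209f numbered 91 of 304, 21 of 92 and 118 of 332. In the untreated tumor they held more Ccl8 (9626 against 507 CPM), Retnla (7824 against 268 CPM) and Mrc1 (1901 against 958 CPM) than the cells without. In the progressed tumor the same genes gave 5856 against 2346 CPM, 6432 against 1000 CPM and 1898 against 832 CPM. In the regressed tumor Ccl8 gave 8238 against 1324 CPM, Mrc1 gave 1048 against 972 CPM (log2 ratio 0.11, 95% interval -0.66 to 0.82), and Retnla had 0 UMIs on both sides. Cd74, the invariant chain of class II, went the other way in each tumor, at 5505 against 13854 CPM, 15381 against 26366 CPM and 10432 against 30402 CPM. Ccr2 did so too, at 319 against 1019 CPM, 47.6 against 1028 CPM and 144 against 299 CPM. C1qa differed less, at 5648 against 3779 CPM, 6381 against 5479 CPM and 6788 against 6136 CPM.

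**Figure D4:**
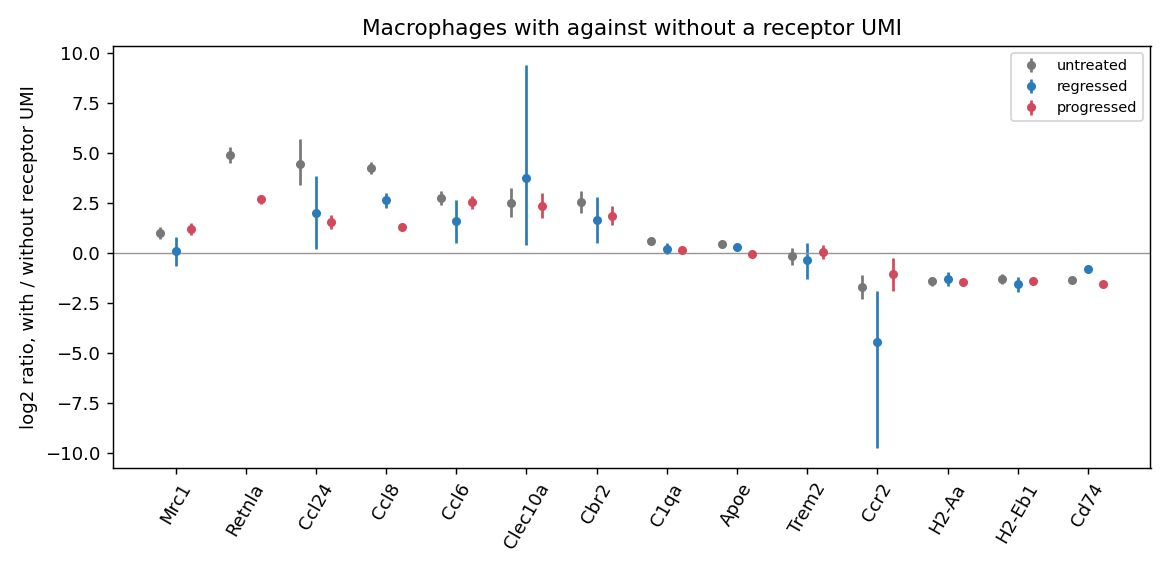
Log2 ratio of CPM between macrophages with and without a UMI of Cd163, Folr2, Fcna or Cd209f, after thinning, with 95% counting intervals, for each tumor; ratios without a finite interval are left out. The plotted chemokines, Clec10a and Cbr2 lie above 0, and Ccr2, H2-Aa, H2-Eb1 and Cd74 below 0, in each tumor where a value is drawn.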

How the data were processed

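The values are counts of UMIs that the authors deposited per gene and cell, 1 table per tumor, from uniquely mapped reads on the sense strand of exons, and the cell table they deposited gives the tumor and cluster name of each cell, a unit of the other kind. Per the labels, libraries came from a droplet kit that reads transcript ends, and the submitters' processing notes name GSNAP, Seurat 2.2.0 and build GRCm38. Some items of the model and of the gene lists are not reported here. The annotation release is not given in the sources used here. Low-depth cells had been left out before deposit, and no source names a removal of doublets; none was applied here. Cells carry codes and no barcodes, so barcodes shared between libraries could not be counted. Sums of the tables exceeded the deposited totals of the macrophages by 5.63%. Entrez IDs matched a RefSeq symbol for 31049 of 36530 features, 5479 kept their number, and 2 are reporters. Features with the same counts in every cell (79 in 34 sets) were counted once.

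UMIs were summed per cluster and tumor and scaled to CPM over the whole sum, with exact Poisson, Clopper-Pearson and conditional binomial 95% intervals (scipy 1.17.1). A count of 0 was set to 3 UMIs over the group. Thinning drew 1000 UMIs per cell with the fixed seed 7. TMM factors (edgeR 4.0.16), equal weight per cell, other UMI minimums and totals, and 2 added after seeing the data, the stroma comparison and leaving out the macrophage with the most UMIs of a gene, were alternatives. The members and lists were chosen with earlier results of these data known. Named genes are list members, the 8 features per tumor pair and direction with the largest ratio whose interval lies beyond 2-fold, and the 10 per direction against each monocyte cluster, with at least 50 CPM and 20 UMIs, without haemoglobin, Xist, Y-linked, mitochondrial or repeated features.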

Additional observations from a re-analysis of the deposited data

How the results depend on the processing

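No paired analysis was possible because each group held 1 tumor, and leaving out a replicate was not possible for the same reason. Depth limits the regressed macrophages most. Of the alternative values of named genes, 1263 lay within the counting interval, 265 outside it and 10 were counted as reversed in sign. For list sums the counts were 208, 187 and 19. Those counted as reversed do not cover every change of sign where the main ratio lay near 0. Cd209f, progressed against untreated, went from -0.06 to 0.13 with equal weight per cell and was not counted as reversed. The causes were not tested, except that fewer UMIs per feature or fewer features enter by construction under thinning, other minimums and the stroma comparison. With cells thinned to 1000 UMIs, feature counts were 44 for higher, regressed against untreated, 120 for lower, regressed against untreated, 123 for higher, progressed against regressed, 42 for lower, progressed against regressed, 52 for higher, progressed against untreated, 62 for lower, progressed against untreated, 40 for higher than in Monocytes1 in each tumor, 30 for lower than in Monocytes1 in each tumor, 37 for higher than in Monocytes2 in each tumor and 23 for lower than in Monocytes2 in each tumor. With at least 20 UMIs, feature counts were 579 for higher, regressed against untreated, 811 for lower, regressed against untreated, 664 for higher, progressed against regressed, 674 for lower, progressed against regressed, 315 for higher, progressed against untreated, 432 for lower, progressed against untreated, 181 for higher than in Monocytes1 in each tumor, 143 for lower than in Monocytes1 in each tumor, 237 for higher than in Monocytes2 in each tumor and 156 for lower than in Monocytes2 in each tumor. With at least 200 UMIs, feature counts were 27 for higher, regressed against untreated, 85 for lower, regressed against untreated, 85 for higher, progressed against regressed, 19 for lower, progressed against regressed, 41 for higher, progressed against untreated and 25 for lower, progressed against untreated. With only features at least 2 times above stroma in the higher tumor (added after seeing the data), feature counts were 40 for higher, regressed against untreated, 165 for lower, regressed against untreated, 152 for higher, progressed against regressed, 37 for lower, progressed against regressed, 71 for higher, progressed against untreated and 75 for lower, progressed against untreated. With TMM scaling, feature counts were 498 for higher, progressed against regressed, 99 for lower, progressed against regressed and 109 for lower, progressed against untreated. With share of all cells of the tumor as the choice, the macrophage percentage was 7.62 (untreated), 3.84 (regressed), 6.99 (progressed). With share of the cells of Macrophages, Monocytes1 and Monocytes2 as the choice, the macrophage percentage was 51.5 (untreated), 36 (regressed), 61.3 (progressed). With cells with at least 1000 UMIs as the choice, the macrophage percentage was 11.7 (regressed). Under the setting TMM scaling, log2 ratios were -0.10 for identity markers regressed against untreated, 0.67 for identity markers progressed against regressed, 0.57 for identity markers progressed against untreated, -0.0785 (reversed) for complement regressed against untreated, 0.0822 (reversed) for efferocytosis progressed against regressed, -0.34 for iron and haem regressed against untreated, 0.49 for iron and haem progressed against regressed, 0.14 for iron and haem progressed against untreated, 0.70 for MHC class II regressed against untreated, 0.35 for MHC class II progressed against regressed, 1.05 for MHC class II progressed against untreated, 0.10 (reversed) for lipid handling progressed against regressed, 0.18 (reversed) for lysosome progressed against regressed, 0.0216 (reversed) for Ccl7 progressed against untreated, 0.0365 (reversed) for Pf4 progressed against untreated, 0.0599 (reversed) for Apoe progressed against regressed. Under the setting cells thinned to 1000 UMIs, log2 ratios were 0.14 for identity markers regressed against untreated, 0.35 for identity markers progressed against regressed, 0.49 for identity markers progressed against untreated, 1.03 for MHC class II regressed against untreated, 0.0209 for MHC class II progressed against regressed, 1.05 for MHC class II progressed against untreated, 0.0749 (reversed) for cell cycle progressed against untreated, 0.0839 (reversed) for Ccl7 progressed against untreated, -0.16 (reversed) for Ccl8 regressed against untreated, 0.0847 (reversed) for Pf4 progressed against untreated. Under the setting equal weight per cell, log2 ratios were 0.21 for identity markers regressed against untreated, 0.32 for identity markers progressed against regressed, 0.53 for identity markers progressed against untreated, 0.0636 (reversed) for efferocytosis progressed against regressed, 0.0356 (reversed) for iron and haem regressed against untreated, 0.0327 for iron and haem progressed against regressed, 0.0683 for iron and haem progressed against untreated, 0.69 for MHC class II regressed against untreated, 0.34 for MHC class II progressed against regressed, 1.03 for MHC class II progressed against untreated, -0.00126 (reversed) for checkpoint and inhibitory progressed against untreated, -0.21 (reversed) for Cd209g progressed against regressed, -0.96 (reversed) for Hmox1 progressed against regressed, 0.0853 (reversed) for Maf progressed against regressed. Under the setting deepest 5% of cells left out, log2 ratios were 0.11 for identity markers regressed against untreated, 0.50 for identity markers progressed against untreated, 0.0717 for iron and haem progressed against untreated, 0.19 for MHC class II progressed against regressed, 0.99 for MHC class II progressed against untreated, 0.0195 (reversed) for Cd209g progressed against untreated. Under the setting totals without haemoglobin, mitochondrial and ribosomal protein genes, log2 ratios were 0.42 for identity markers progressed against untreated, -0.00566 (reversed) for iron and haem progressed against untreated, 0.79 for MHC class II regressed against untreated, 0.90 for MHC class II progressed against untreated. Under the setting without the member with the most UMIs, log2 ratios were 0.0598 (reversed) for efferocytosis progressed against regressed, 0.0307 (reversed) for iron and haem regressed against untreated, -0.0623 (reversed) for iron and haem progressed against regressed, -0.0317 (reversed) for iron and haem progressed against untreated, 0.19 for MHC class II progressed against regressed, 0.99 for MHC class II progressed against untreated, -0.0547 (reversed) for lipid handling regressed against untreated, 0.0561 (reversed) for lipid handling progressed against regressed, -0.18 (reversed) for lysosome regressed against untreated, 0.15 (reversed) for lysosome progressed against regressed, -0.0214 (reversed) for lysosome progressed against untreated, -0.017 (reversed) for growth factor receptors progressed against regressed.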
